A study of Mus musculus with 2 samples.

Results

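The genes described here shape and repair the surface membrane of the muscle fibre, and their binding by the RNA-binding protein Mbnl2 was read from HITS-CLIP tags in quadriceps muscle. The members were chosen by name and are Bin1, Dnm2, Cav3, Dysf, Mtm1, Mtmr1, Mtmr3 and Mtmr4, which are 8 of the 22380 protein-coding genes in the mm9 annotation (GENCODE vM1). They gathered 82 tags on their own strand in the WT table and 171 in the *Mbnl1* KO table. In HITS-CLIP, ultraviolet light links a protein to RNA in direct contact with it, RNase A trims the RNA, and the short pieces that remain on the immunopurified protein, the tags, are sequenced.

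The study compared Mbnl2 binding between WT and *Mbnl1*-/- mice, 15 to 16 weeks old, to ask whether Mbnl2 takes up RNA targets when Mbnl1 is lost. The *Mbnl1* KO mice carry an allele named for the deletion of exon 3, not a loss of the whole gene, and both groups carry intact Mbnl2. The labels give the strain of both groups as C57BL/6, and both were immunopurified with the antibody mAb 3B4 after high or low RNase. The authors merged the tags of 3 mice into 1 table per genotype, which leaves no estimate of the spread from mouse to mouse and no basis for a test of genotype.

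T-tubules are inward folds of the muscle surface membrane that carry the action potential to the calcium stores inside the fibre. Their growth needs proteins that bend membrane, enzymes that cut it, and phosphoinositide lipids that recruit both, and mutations in several of these genes cause centronuclear or myotubular myopathy. Muscleblind proteins control the splicing of exons and the use and location of 3′UTRs, and they prefer RNA in which GC has a pyrimidine on each side. These Muscleblind letters, written as DNA, are TGCT as well as the variant TGCC, and with a leading C they are CGCT as well as the variant CGCC.

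The WT table held 343554 unique tags and the *Mbnl1* KO table held 476543, made from 5176203 and 50329234 reads. Tags of a single read were 79.0% of the WT and 59.5% of the *Mbnl1* KO tags. Single-base tags, in which at least 70% of the reference bases are the same, were 44.0% and 17.0%, and they enter every value that is scaled to the total of a table. All 7 skeletal muscle markers counted (Ckm, Acta1, Ttn, Myh4, Myh1, Neb and Atp2a1) had tags in both tables, from 32 WT tags over Ckm to 1519 *Mbnl1* KO tags over Ttn. Genes of other cells in muscle also had tags, among them the fibroblast collagen gene Col1a1 (123 WT and 471 *Mbnl1* KO tags) and the endothelial genes Cdh5 (13 and 55) and Pecam1 (16 and 18). The leukocyte gene Ptprc had 9 and 6, and the adipocyte gene Adipoq had 1 and 12 (ratio 8.65, interval 1.28 to 370). The part of these cells in the results was not tested. The coordinates of the deleted Mbnl1 exon were not at hand. Over the body of Mbnl1 there were 100 WT and 452 *Mbnl1* KO tags, over exon 3 of its longest coding transcript 0 and 4, and over exon 2, which holds the start codon, 5 and 2 (ratio 0.288, interval 0.0275 to 1.76), so these tables do not check the genotype labels.

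Counts below are unique tags that overlap a region on the strand of its gene. The level is given in tags per 1000000 tags of the table, and the ratio is the *Mbnl1* KO level over the WT level, with a 95% interval converted from that of the *Mbnl1* KO share of the tags (exact Clopper-Pearson). The intervals cover counting error only and compare these merged libraries, not the genotypes. These values are not divided by the RNA level of each gene. More binding per RNA and more RNA therefore cannot be told apart, nor can more RNA per cell and more cells that make it. The paper also reports more Mbnl2 protein in *Mbnl1* KO muscle, seen as well in the immunopurified material from quadriceps. The ratios are not divided by the amount of Mbnl2 either, and its part in them was not tested.

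Dnm2 was the member whose tags differed most between the tables, Bin1, Mtm1, Mtmr1, Mtmr3 and Mtmr4 had ratios between 1.20 and 1.80 with intervals that include 1, Dysf had a ratio of 0.918 with an interval on both sides of 1, and Cav3 had no tag. With single-base tags left out, Mtm1 (0.843), Mtmr1 (0.820) and Mtmr3 (0.937) had ratios below 1, and the same genes were below 1 with the median gene set to 1 (0.767, 0.688 and 0.770). Of the 8 members, 5 had at least 20 tags over both tables (Bin1, Dnm2, Dysf, Mtm1 and Mtmr3). The interval lay above 1 for 1 of these 5, Dnm2, against 38.6% of the 3888 protein-coding genes with as many tags. The ratio reached 2 for the same 1 of 5, against 41.6% of those genes. The interval lay below 1 for none of the 5, against 3.83%. The median ratio of the 5 was 1.34, and that of the 3888 genes was 1.75.

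**Figure D1:**
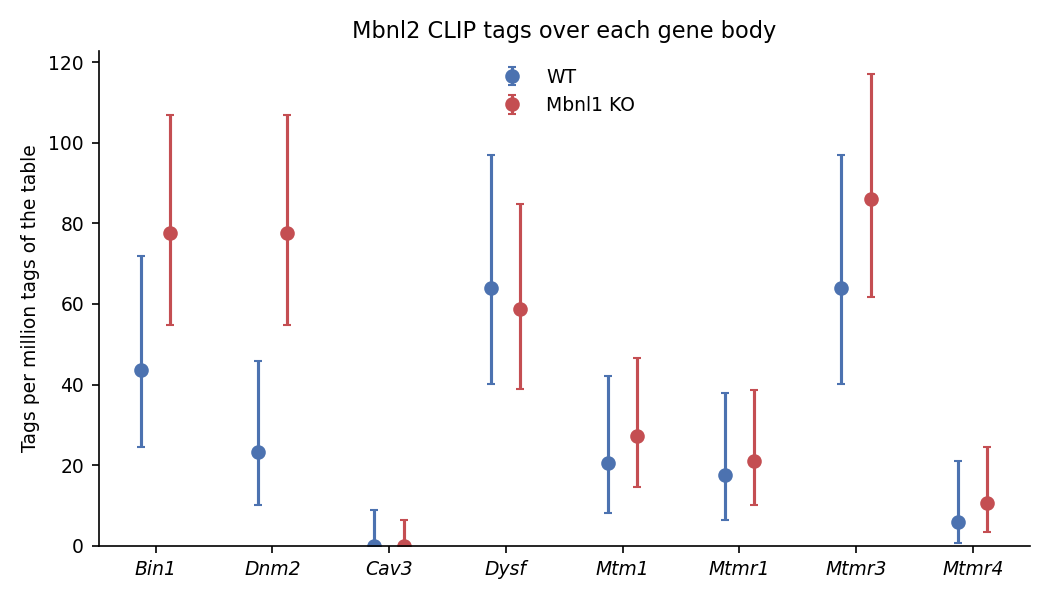
Tags per 1000000 tags of the table over the body of each member in the WT and *Mbnl1* KO tables, with exact 95% Poisson counting intervals and, for the count of 0 over Cav3, a bar up to 3 tags. Dnm2 rises from 23.3 to 77.6, while Dysf is at 64.0 and 58.8 and Cav3 at 0 in both.

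Bin1 encodes amphiphysin 2, a BAR domain protein that bends the surface membrane into tubules, and its muscle exon is a known splicing target in myotonic dystrophy. Bin1 (ENSMUSG00000024381.8, chromosome 18 from 32536871 to 32595390, plus strand) carried 15 tags in WT and 37 in the *Mbnl1* KO, at levels of 43.7 and 77.6 tags per 1000000. The ratio was 1.78 with an interval of 0.953 to 3.49, which includes 1, and it was 1.02 with the median gene set to 1 and 1.1 with only tags of at least 2 reads that are not single-base. Per length it was the most densely tagged member in both tables, with 0.256 WT and 0.632 *Mbnl1* KO tags per kb. Its tags lay toward the 3′ end of the gene, with 12 of 15 WT and 30 of 37 *Mbnl1* KO tags past the midpoint of the gene body. Most of its coding exons also lie past the midpoint. In Dysf (8 of 22 WT and 12 of 28 *Mbnl1* KO tags) and Mtmr1 (1 of 6 and 4 of 10) fewer tags lay past it. Mtm1 was mixed, with 4 of 7 and 6 of 13. The share past the midpoint was not counted over all genes. No Bin1 tag was a single-base tag in either table.

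Dnm2 encodes dynamin 2, the GTPase that cuts the necks of membrane buds and tubules and works with amphiphysin 2. Dnm2 (ENSMUSG00000033335.10, chromosome 9 from 21229352 to 21312203, plus strand) carried 8 tags in WT and 37 in the *Mbnl1* KO. These are 23.3 and 77.6 tags per 1000000, a ratio of 3.33 with an interval of 1.53 to 8.29, which lies above 1. The interval included 1 with the median gene set to 1 (ratio 1.91, interval 0.876 to 4.75), with only tags of at least 2 reads (2.15, 0.733 to 8.54), and with only such tags that are not single-base (1.72, 0.585 to 6.88). Bin1 and Dnm2 thus had equal numbers of tags in the *Mbnl1* KO table, and the difference between their ratios sits in the WT table. Of the Dnm2 tags, 5 of 8 in WT and 28 of 37 in the *Mbnl1* KO lay past the midpoint of the gene. On the opposite strand, which holds the microRNA hairpin Mir199a-1 within Dnm2, there were 9 WT and 16 *Mbnl1* KO tags.

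Cav3 encodes caveolin 3, the coat protein of muscle caveolae. Cav3 (ENSMUSG00000062694.6, chromosome 6 from 112409495 to 112422865, plus strand) had no tag in either table and none on the opposite strand. At these depths a count of 0 allows up to 8.73 WT and 6.30 *Mbnl1* KO tags per 1000000, taken as 3 tags per table, for counting error only. Cav3 is also the shortest member, at 13.4 kb.

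Dysf encodes dysferlin, a ferlin that brings vesicles to torn membrane for repair and is also found at T-tubules. Dysf (ENSMUSG00000033788.9, chromosome 6 from 83958584 to 84161054, plus strand) carried 22 tags in WT and 28 in the *Mbnl1* KO, at levels of 64.0 and 58.8 tags per 1000000. The ratio was 0.918 with an interval of 0.506 to 1.68. It is the longest member at 202 kb and had 0.109 WT and 0.138 *Mbnl1* KO tags per kb, which of the members with tags put it above only Mtm1 (0.124) in the *Mbnl1* KO table. Single-base tags were 10 of its 22 WT tags (45.5%) and 3 of its 28 *Mbnl1* KO tags (10.7%). With these tags left out of counts and totals the ratio was 1.02, and with the median gene set to 1 it was 0.526 (interval 0.290 to 0.964). With only tags of at least 2 reads it was 0.607 (interval 0.233 to 1.69), and 0.509 (interval 0.196 to 1.42) when single-base tags were left out as well.

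The myotubularins remove phosphate from phosphoinositides of endosomes and plasma membrane, and loss of Mtm1 causes X-linked myotubular myopathy. Mtm1 (ENSMUSG00000031337.9, chromosome X from 68463942 to 68568866, plus strand) carried 7 tags in WT and 13 in the *Mbnl1* KO, 20.4 and 27.3 per 1000000, with a ratio of 1.34 (interval 0.496 to 3.96). Its close relative Mtmr1, the next member downstream on the same chromosome (ENSMUSG00000015214.7, 68617935 to 68672371, plus strand), had 6 and 10 tags and a ratio of 1.20 (interval 0.396 to 4.02). Both genes had so few tags that their intervals span falls as well as rises.

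Mtmr3 encodes a phosphatase of the same family that acts on endosomes and in autophagy. Mtmr3 (ENSMUSG00000034354.10, chromosome 11 from 4380871 to 4494866, minus strand) had the most tags of the members in the *Mbnl1* KO table. Its 22 tags in WT and 41 in the *Mbnl1* KO are 64.0 and 86.0 per 1000000, and the ratio was 1.34 (interval 0.782 to 2.37). Up to the midpoint of the gene there were 16 WT and 17 *Mbnl1* KO tags, and past it 6 and 24. Mtmr4, an endosomal relative (ENSMUSG00000018401.10, chromosome 11 from 87405664 to 87429804, plus strand), counted 2 tags in WT and 5 in the *Mbnl1* KO and a ratio of 1.80 with an interval of 0.295 to 18.9. Both WT tags of Mtmr4 were single-base tags.

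**Figure D2:**
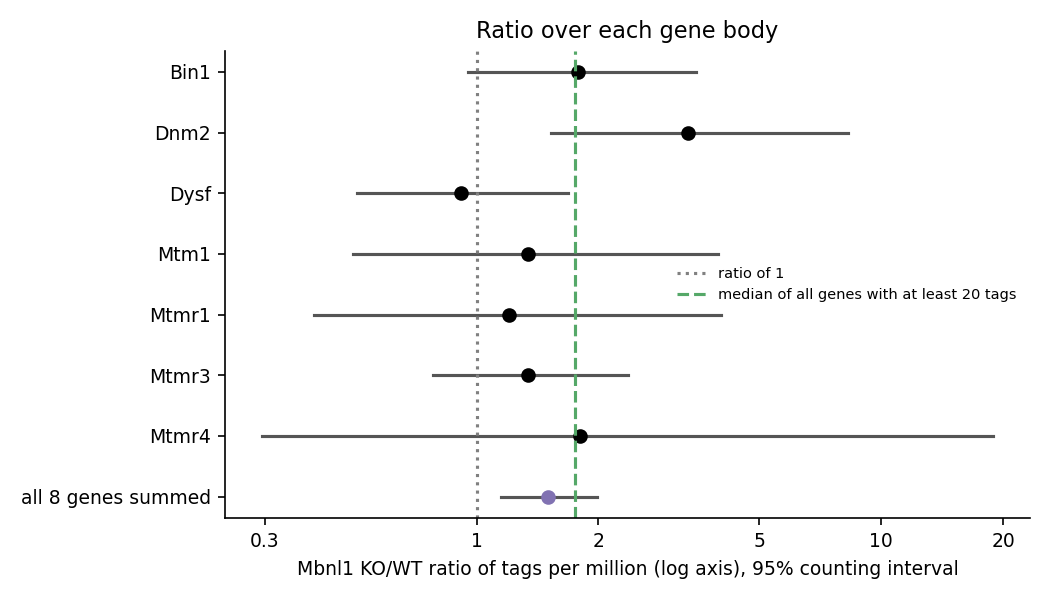
*Mbnl1* KO/WT ratio of tags per 1000000 for each member with tags and for the members pooled, on a log axis, with exact 95% intervals, a dotted line at 1 and a dashed line at the median of all genes with at least 20 tags (1.75). The interval of Dnm2 (1.53 to 8.29) lies above 1, and those of the other single members include 1.

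The members pooled had 239 WT and 359 *Mbnl1* KO tags per 1000000, a ratio of 1.50 with an interval of 1.15 to 1.98. All protein-coding genes pooled had a ratio of 1.61 (interval 1.60 to 1.63), which lies inside the interval of the members. The pooled value rested in part on Dnm2. Without Dnm2 it was 1.31 with an interval of 0.976 to 1.76, which includes 1, and leaving out any other single member gave 1.44 to 1.72. With the median gene set to 1 in place of scaling to all tags, the pooled ratio was 0.861 (interval 0.658 to 1.13), so its direction depends on the scaling. The interval also included 1 without single-base tags (1.19, 0.890 to 1.61), with only tags of at least 2 reads (1.29, 0.855 to 2.01), with both filters (1.08, 0.710 to 1.67) and with tags at the same position collapsed to 1 (1.33, 0.997 to 1.79).

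Most tags over these genes lay in introns. Introns held 76 of 82 WT tags, which is 92.7% (exact interval 84.8 to 97.3), and 145 of 171 *Mbnl1* KO tags, which is 84.8% (78.5 to 89.8). Over all protein-coding genes introns held 75.6% of the WT and 58.2% of the *Mbnl1* KO tags. Introns make up 92.2% of the length of the members and 92.3% of that of all genes. Per length, the introns of the members had 0.126 WT and 0.240 *Mbnl1* KO tags per kb, against 0.0710 and 0.122 over all genes. The ratio over the introns of the members was 1.38 (interval 1.04 to 1.84), and over all introns, with all tags kept, it was 1.24. The ratio of the members was 1.1 (interval 0.805 to 1.51) without single-base tags and 0.788 with the median gene set to 1, and it was 0.964 with only tags of at least 2 reads that are not single-base.

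**Figure D3:**
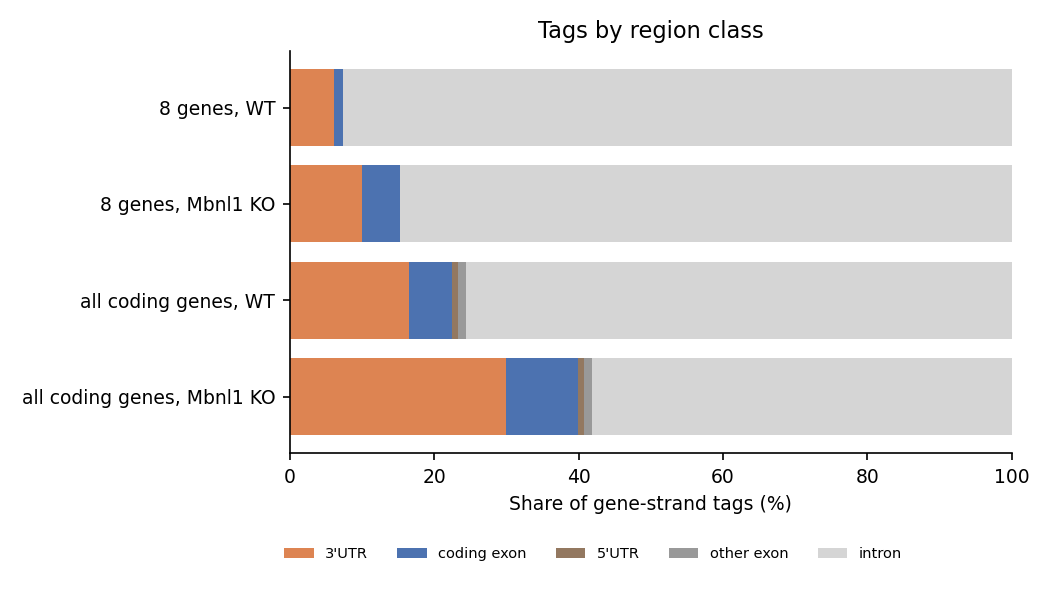
Percent of tags in 3′UTRs, coding exons, 5′UTRs, other exons and introns, for the members and for all protein-coding genes in each table. Introns take 92.7% and 84.8% of the tags over the members, against 75.6% and 58.2% over all genes.

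The 3′UTRs of the members held 5 WT and 17 *Mbnl1* KO tags, 6.10% and 9.94% of their tags, with a ratio of 2.45 (interval 0.868 to 8.50). Over all protein-coding genes 3′UTRs held 16.5% and 29.9% of the tags, with a ratio of 2.93. In the *Mbnl1* KO table, with all tags kept, the interval of the share over the members, 5.90% to 15.4%, lay below the share over all genes. With only tags of at least 2 reads that are not single-base, the members' share was 15.5% (9.15 to 24). The share over all genes was not counted with these filters. Per length, 3′UTRs of the members had 0.456 WT and 1.55 *Mbnl1* KO tags per kb, against 0.535 and 2.18 over all genes. Coding exons held 1 WT and 9 *Mbnl1* KO tags, and 5′UTRs held none in either table. Exons of all classes together had a ratio of 3.12 (interval 1.26 to 9.28) on 6 and 26 tags, and over all genes it was 2.77.

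The 3′UTR tags came from a subset of the genes. Bin1 had 3 WT and 7 *Mbnl1* KO tags in its 3′UTR, Mtmr3 had 1 and 6, Mtmr4 had 0 and 4, and Mtm1 had 1 and 0. Dnm2, Dysf, Mtmr1 and Cav3 had none. The Dnm2 tags lay in introns, except for 1 WT and 2 *Mbnl1* KO tags in coding exons. Its introns held 7 tags in WT and 35 in the *Mbnl1* KO, a ratio of 3.60 (interval 1.58 to 9.62). The introns of Dysf had 22 and 25 tags, a ratio of 0.819 (interval 0.443 to 1.52), and those of Mtmr3 had 21 and 34, a ratio of 1.17 (interval 0.658 to 2.12).

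To see where in the members Mbnl2 lies close to alternatively spliced exons, tags were counted over each annotated cassette exon, an internal exon that another coding transcript skips, and 250 nt on each side. The members have 21 such exons, and their windows held 0 WT and 15 *Mbnl1* KO tags, for which the interval of the ratio runs from 2.59 upward. Of the 21 windows, 18 had no tag in either table (85.7%), as did 85.2% of the 14682 windows in all protein-coding genes. The tags came from Dnm2, with 12, and Bin1, with 3. The 3 Bin1 tags lay upstream of exon 13 (108 nt, chromosome 18 from 32588850 to 32588957).

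Among them, 1 window held 11 of the 15 tags. It surrounds a 12-nt exon of Dnm2, exon 14 of its longest coding transcript (chromosome 9 from 21295102 to 21295113), which 7 coding transcripts carry and 2 skip. The window had 0 WT tags and 11 *Mbnl1* KO tags, with an interval of the ratio from 1.81 upward. Of all cassette windows, 97 (0.661%) held at least 10 tags, and the interval of the ratio lay above 1 in 44.3% of these. As many *Mbnl1* KO tags as at Dnm2 exon 14 were found in 49 windows (0.334%), of which 6 had no WT tag. The window was singled out after its counts were seen.

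The sequences around this exon show where the tags lay. In the first line capitals mark the exon, and in the other lines they mark the Muscleblind letters. Each line is 30 nt of the plus strand of mm9, centred on a tag or on the exon and written 5′ to 3′ as DNA.
Dnm2 exon 14, chr9:21295093-21295122: ttctcaaagGGGGAGATCTTGgtaagtacc
Dnm2 upstream tag, chr9:21295042-21295071: ccttccatctctccTGCTctcccttgattg
Dnm2 first downstream position, chr9:21295117-21295146: agtaccTGCTtagtgtggtagctaacttag
Dnm2 second downstream position, chr9:21295281-21295310: ctaacccaattgcagctctctgggagacac
Dnm2 last downstream tag, chr9:21295339-21295368: cttggtgtcctgtagttcaaagatggcaaa

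The 11 tags lay at 6 distinct positions and only in the *Mbnl1* KO table. Both tags over the exon started 17 nt before it, and 1 tag started 60 nt before it. The first downstream position, 18 nt after the start of the exon and just past its 5′ splice site, had 3 tags with 5117 reads, and a further tag started 1 nt before it. The second had 3 tags with 8 reads, 181 nt after the start of the exon, and the last tag lay 237 nt after it. Of the 11 tags, 9 rested on at least 2 reads. The WT table was made from fewer reads than the *Mbnl1* KO table, and the part of this in the count of 0 was not tested. The 512-nt window held 2.93 of the listed letters per 100 nt, and the whole Dnm2 gene body 1.58. With tags at the same position collapsed to 1, this window kept 6 *Mbnl1* KO tags and 0 WT tags. The cassette windows of the members together had 10 and 0. No interval of the ratio was computed for this window after collapsing or with only tags of at least 2 reads. The interval from 1.81 upward therefore holds for all tags only, and whether it stays above 1 under these filters was not tested.

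**Figure D4:**
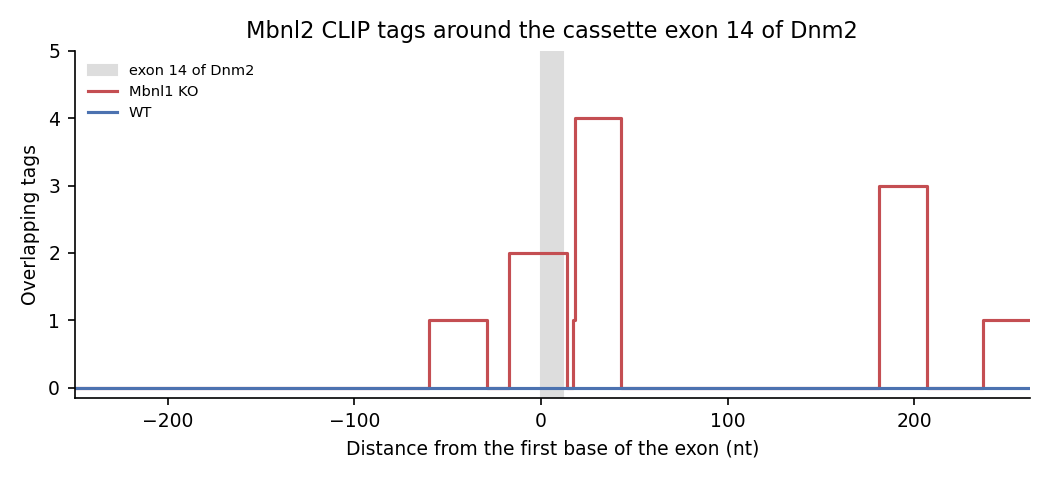
Number of overlapping tags of each table (vertical axis) by distance from the first base of Dnm2 exon 14 in nt (horizontal axis), with the exon shaded. All 11 tags belong to the *Mbnl1* KO table, and the highest overlap begins just after the exon, 18 nt from its start, while the WT line stays at 0.

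Bin1 exon 11 is the exon of this gene whose splicing the study followed. It was not matched to the annotation here, so its own tags are not given, and it may be missing from the cassette exons above. Counts are given instead for the exon of that number in the longest coding transcript, which has 19 exons. The exon counted (148 nt, chromosome 18 from 32584474 to 32584621) is skipped by no annotated coding transcript. It had 0 tags in WT and 2 in the *Mbnl1* KO, and the intron before it had 1 and 1. The 3 short cassette exons of Mtmr1 (24, 27 and 51 nt), a gene that is also misspliced in congenital myotonic dystrophy, had no tag within 250 nt in either table.

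Widened to every internal exon of the members with 250 nt on each side, a region chosen after the data were seen, the counts were 5 WT and 31 *Mbnl1* KO tags. The ratio there was 4.47 (interval 1.72 to 14.7), against 1.31 (interval 0.986 to 1.75) over the rest of the gene bodies. The first interval included 1 with the median gene set to 1 (2.56, 0.987 to 8.44) and with only tags of at least 2 reads that are not single-base (3.92, 0.977 to 34.1). Over all protein-coding genes the same regions had ratios of 2.01 and 1.56, each inside the interval of the members. The share of the members' tags near internal exons was 6.10% (exact interval 2.01 to 13.7) in WT and 18.1% (12.7 to 24.7) in the *Mbnl1* KO. For all genes it was 11.9% and 14.8%, which lie inside these intervals. These regions are 14% of the length of the members and 9.81% of that of all genes. Dnm2 gave 2 WT and 14 *Mbnl1* KO of these tags, Bin1 gave 1 and 7, Dysf gave 0 and 5, Mtm1 gave 0 and 3 and Mtmr3 gave 0 and 2. Mtmr1 and Mtmr4 went the other way, with 1 and 0 each. Without Dnm2 the ratio was 4.09 (interval 1.18 to 21.8) on 3 and 17 tags.

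**Figure D5:**
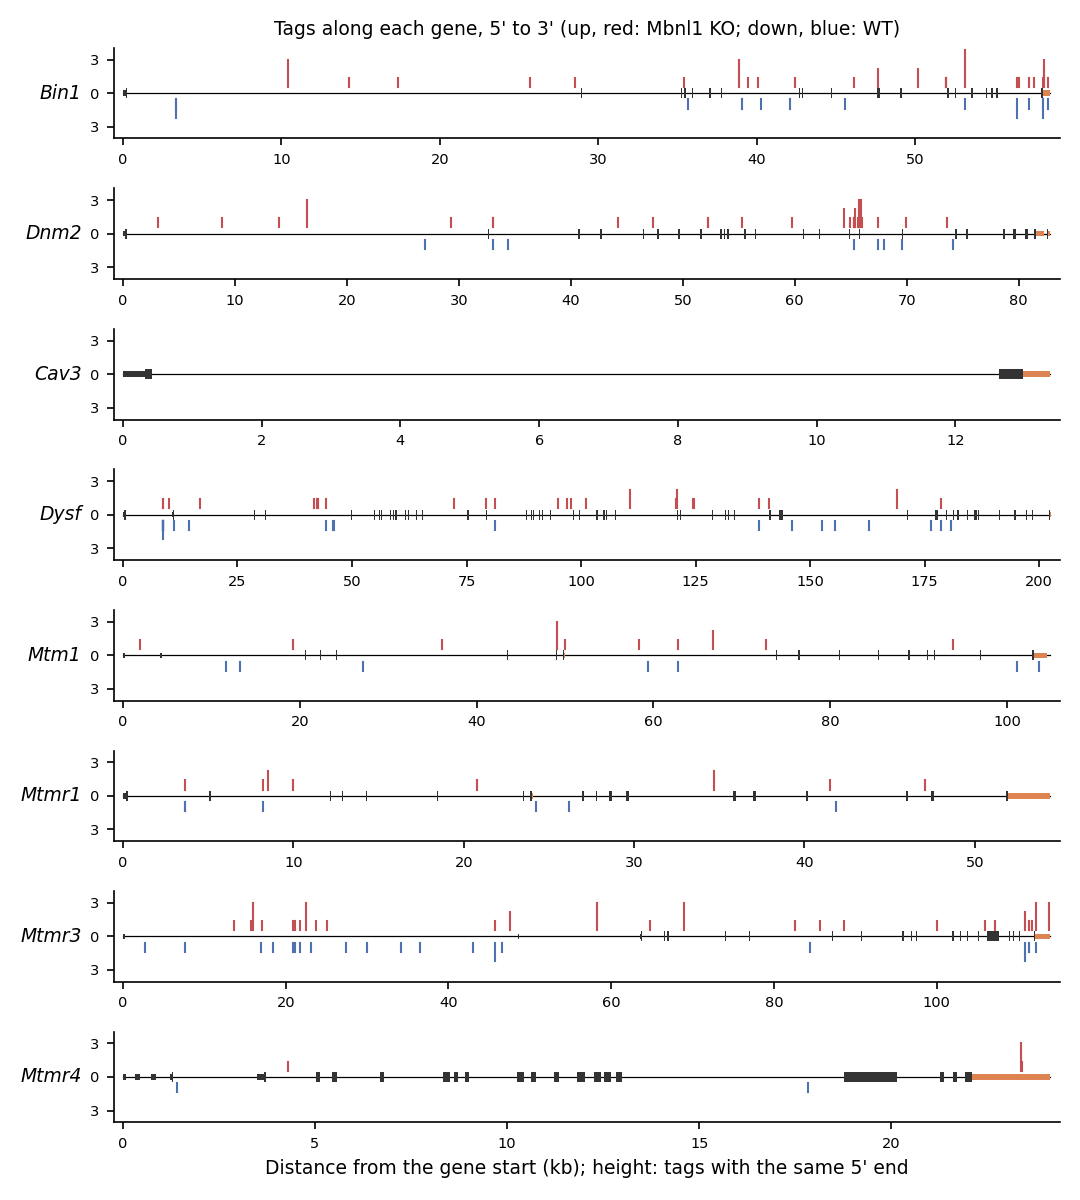
Tags along each member, in kb from the start of the gene, with *Mbnl1* KO tags upward and WT tags downward, bar height giving the tags with the same 5′ end, coding and 5′UTR exons in black and 3′UTRs in orange. The Bin1 tags gather toward the 3′ end, where most of its coding exons also lie, with 30 of 37 *Mbnl1* KO tags past its midpoint.

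Single positions were looked at next, to see where tags recurred. At least 3 tags shared both ends at 17 positions, chosen after their counts were seen, of which 8 were in Mtmr3, 4 in Bin1, 3 in Dnm2 and 1 each in Mtm1 and Mtmr4. At 12 of these (70.6%) the WT table had no tag, and at none did the *Mbnl1* KO table lack one. Of the 14505 such positions in all protein-coding genes, 70.9% had no WT tag and 2.21% had no *Mbnl1* KO tag, so the members lay near the share over all genes. The sources do not say how tags with the same ends were told apart after potential PCR duplicates were removed. Sequences are shown for the Mtmr3, Mtmr4 and Mtm1 positions that touch a 3′UTR, hold the Muscleblind letters or stand alone in their gene, with capitals for those letters on the strand of the gene.
Mtmr3 3′UTR, chr11:4381075-4381104, minus strand: aaaTGCTtgcagctcttagccctttttgat
Mtmr3 3′UTR, chr11:4382628-4382657, minus strand: tgtacagagattgggatgtaccactggatt
Mtmr3 intron, chr11:4383942-4383971, minus strand: cctcctgTGCCtgagTGCTccttccccagt
Mtmr3 intron, chr11:4425859-4425888, minus strand: caataattgTGCTcagtgggcTGCTtctat
Mtmr3 intron, chr11:4478908-4478937, minus strand: agtccagaTGCTgactcactaaggagcaat
Mtmr4 3′UTR, chr11:87429040-87429069, plus strand: acagtctccttggcttataggacttcctag
Mtm1 intron, chrX:68513026-68513055, plus strand: atctgcattctctgaaatgtctcctctggg

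The first Mtmr3 3′UTR position had 0 WT and 3 *Mbnl1* KO tags with 964 reads, and the second had 1 and 2. The first intron position listed, near the 3′ end of the gene, was shared by both tables, with 2 tags in each, while the other 2 had 0 WT and 3 *Mbnl1* KO tags each. The Mtmr4 position had 0 and 3 tags with 1772 reads, which made up 3 of the 5 *Mbnl1* KO tags of that gene. The Mtm1 position had 0 and 3 tags with 274 reads.

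Few positions were used in both tables. The members had 76 distinct tag positions in WT and 130 in the *Mbnl1* KO, of which 17 were shared, which is 22.4% of the WT and 13.1% of the *Mbnl1* KO positions. Over all genes the shares were 21.8% and 11.4%. Mtmr3 had 7 of the 17 shared positions and Bin1 had 4, while Dnm2 had 1.

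The Muscleblind letters were found more often at the tags than along the genes. With single-base tags left out, a 30-nt window at the tag position held them on the strand of the gene, overlaps allowed and the other strand not searched, at 32 of 62 WT positions, 51.6% (exact interval 38.6 to 64.5). It did so at 71 of 121 *Mbnl1* KO positions, 58.7% (49.4 to 67.6). Of all 21819 adjoining 30-nt windows along the members 28.4% held them. At tag positions over all genes the shares were 49.5% and 55.6%, so the members lay near the average of all tagged genes. Of the 13 recurrent positions with a sequence read here, 5 held the letters.

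Runs of overlapping tags with at least 5 tags over both tables were found at 3 places in the members. The run with the most tags, in an intron of Dysf (chromosome 6 from 83967321 to 83967373), counted 8 tags in WT and 2 in the *Mbnl1* KO, a ratio of 0.180 (interval 0.0186 to 0.903). Every tag in it was a single-base tag, as its A-rich sequence shows.
Dysf intron, chr6:83967332-83967361, plus strand: aaaaaaaaaaaaaaaacaaaaaacaaacaa

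The other runs were in Bin1. An intronic one (chromosome 18 from 32589983 to 32590014) held 1 tag in WT and 4 in the *Mbnl1* KO, and one in the 3′UTR (32594966 to 32595009) had 0 and 5, with intervals that include 1. Over all protein-coding genes there were 7376 such runs, of which 55.4% had a ratio of at least 2.

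Genes of the same pathways were counted in the same way to place the members among their relatives. Of 63 related genes, 31 had at least 20 tags, and the interval of the ratio lay above 1 for 11 of them and below 1 for none, against 38.6% and 3.83% of all protein-coding genes with as many tags. Their median ratio was 2.16, against 1.34 over the 5 members and 1.75 over all genes. Among further myotubularins, 4 of 10 had enough tags, with a median of 1.87, and the interval lay above 1 for 1 of them. Sbf2, a catalytically inactive family member, had 17 WT and 43 *Mbnl1* KO tags and a ratio of 1.82 (interval 1.02 to 3.41). Mtmr6, an active one, had 7 and 21 tags and a ratio of 2.16 (interval 0.886 to 6.02).

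Other phosphoinositide kinases and phosphatases had a median of 2.02 over 9 genes with enough tags. Pip5k1b, a kinase that makes the plasma membrane phosphoinositide bound by dynamin, had 36 tags in WT and 30 in the *Mbnl1* KO and a ratio of 0.601 (interval 0.357 to 1.00). The group of dynamins and BAR domain proteins other than Dnm2 and Bin1 had a median of 1.99 over 8 genes, with 3 intervals above 1. As listed, these genes include Wasl (8 and 25 tags, ratio 2.25), which is of neither kind. Dnm3, another dynamin, had 34 and 50 tags and a ratio of 1.06 (interval 0.672 to 1.69), and Sh3glb1 had 20 and 48 and a ratio of 1.73 (interval 1.01 to 3.08).

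Caveolar genes other than Cav3 had tags, in contrast to Cav3 itself, with a median ratio of 2.31 over 5 genes and 3 intervals above 1. Cav1, the caveolin of endothelium, fat and fibroblasts, counted 65 tags in WT and 208 in the *Mbnl1* KO, a ratio of 2.31 (interval 1.74 to 3.10), and Ptrf, which encodes the caveolar coat protein cavin 1, had 22 and 83, a ratio of 2.72 (interval 1.68 to 4.57). Genes of membrane repair other than Dysf had a median of 2.84 over 5 genes and 3 intervals above 1. Ahnak, a large scaffold protein that binds dysferlin, had 23 and 98 tags and a ratio of 3.07 (interval 1.94 to 5.07). Anxa5, a calcium-dependent membrane-binding annexin, had 18 and 71 tags and a ratio of 2.84 (interval 1.68 to 5.07).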

How the data were processed

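Mbnl2 HITS-CLIP libraries of quadriceps muscle from 3 WT and 3 *Mbnl1* KO mice, made with high (38.6 U/ml) and low (0.0386 U/ml) RNase A that the tables do not tell apart, were taken from 1 merged table for each genotype. The authors aligned filtered reads to mm9 with BWA (version not given in the sources used here), state that they dropped sequences under 20 nt and potential PCR duplicates, and pooled the mice. The count deposited with each tag is its number of reads, not normalized, and each row was counted as 1 unique tag. The deposited tags were 18 to 33 nt long.

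Tags overlapping a gene by at least 1 base on its strand were counted with Python 3.11.15, numpy 2.4.6, pandas 2.3.3, scipy 1.17.1 and matplotlib 3.10.9, and each was given 1 class in the order 3′UTR, coding exon, 5′UTR, other exon, intron, from the coding transcripts of GENCODE vM1. Ratios were scaled to all tags of a table (factor 0.721). No member overlapped another gene of the same strand. Ratio intervals were computed exactly from the counts, and the counting was tested on simulated data.

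All 8 members, their runs of at least 5 tags, and the 2 genes with the most tags in each of 5 groups of related genes were named. One of these related genes is not reported here. Of 64 related genes 63 were matched by symbol. The members and lists were chosen with earlier results of these data known. Alternatives were raw tags, scaling by the median gene, leaving out single-base tags, requiring at least 2 reads, collapsing equal positions, counting by midpoint, and exon classes from 1 transcript. Leaving out a member, the internal exon regions, the recurrent positions and the tag filters tried on the cassette exon windows were chosen after the data were seen. Sequences were read from the mm9 genome. Promoters and proteins were not used.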

Additional observations from a re-analysis of the deposited data

How the results depend on the processing

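The ratio over the pooled gene bodies (1.50) was 2.09 with raw tags, 0.861 with the median gene set to 1, and 1.08 with only tags of at least 2 reads that are not single-base. The ratio over introns (1.38) was 1.91, 0.788 and 0.964 under the same settings. The number of members with an interval above 1 (1) was 3 with raw tags and 0 with the median gene set to 1, with at least 2 reads and with both filters. The share of *Mbnl1* KO tags in 3′UTRs (9.94%) was 15.5% with both filters. The cause of these shifts was not tested. Dnm2 stayed above 1 in all 7 alternatives, between 1.72 and 4.62, and its interval included 1 in 3 of them, with the median gene set to 1, with at least 2 reads and with both filters (1.72, 0.585 to 6.88). The ratio over 3′UTRs lay between 1.40 and 3.40 and that near internal exons between 2.56 and 6.20, where the interval of the latter included 1 with the median gene set to 1 and with both filters. The cassette exon windows held 0 WT and 10 to 15 *Mbnl1* KO tags under every tag filter tried, as counts without scaling. The scaling factor was 0.721 with all tags and 0.313 with both filters. No interval of the ratio was computed for these windows under the filters, so the interval from 2.59 upward holds for all tags only. No paired analysis was possible because all mice of a genotype share 1 table, and for the same reason no replicate could be left out. For Mtm1 and Mtmr4 some tag filters left no WT tag and so no ratio. Depth limits the members with few tags most, as the intervals of Mtmr4, Mtm1 and Mtmr1 show.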

Other observations

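On the opposite strand of the members there were 37 tags in WT and 45 in the *Mbnl1* KO, a ratio of 0.877 (interval 0.555 to 1.39), against 1.50 (interval 1.15 to 1.98) on the strand of the genes. Over all protein-coding genes the values were 0.772 (interval 0.764 to 0.781) and 1.61. Tags on the opposite strand were 31.1% of the WT and 20.8% of the *Mbnl1* KO tags of both strands over the members, and 43.9% and 27.2% over all protein-coding genes. Dysf had 12 WT and 13 *Mbnl1* KO tags there, Dnm2 9 and 16, Mtm1 6 and 5, Mtmr3 4 and 7, Mtmr1 3 and 0, Bin1 2 and 2, and Mtmr4 1 and 2.

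The reads behind the tags differed more between the tables than the tags did. The 82 WT tags of the members held 1841 reads and the 171 *Mbnl1* KO tags held 25826. Over all protein-coding genes the tags held 3058090 and 36737286 reads, so this difference is not particular to the members. Tags of 1 read were 63.4% of the WT and 39.2% of the *Mbnl1* KO tags over the members, and 66.6% and 46.1% over all protein-coding genes. Single-base tags were 18.3% and 5.26% over the members and 26.9% and 7.93% over all protein-coding genes.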
